A study of Mus musculus with 3 samples.

Results

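The genes described here encode ligands and receptors of the platelet-derived growth factor (PDGF) family, namely the ligands Pdgfa, Pdgfb and Pdgfc and the receptors Pdgfra and Pdgfrb. All probes that the array files assign to these 5 genes by name, and that are not control spots, were taken, which gave 10 probes on 19 spots of the 41174 probes and 27745 gene names on the array. Kidney rudiments of Fgfrl1-/- mouse embryos were compared with those of wildtype littermates at E12.5, both labelled as C57BL/6, to find genes whose expression depends on Fgfrl1. RNA of 6 to 9 pooled rudiments made up each preparation, and each of 3 two-colour Agilent arrays received 1 Fgfrl1-/- pool labelled with Cy3 and 1 wildtype pool labelled with Cy5. The dyes were swapped on 0 arrays, so dye and genotype cannot be told apart, and the p-values measure only the spread between these 3 pairs of pools. In a whole rudiment, fewer cells of a type and less RNA per cell cannot be told apart.

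PDGFs are secreted dimers that bind receptor tyrosine kinases at the cell surface. Dimers of PDGF-A or PDGF-C signal mainly through the alpha receptor, encoded by Pdgfra, and dimers of PDGF-B through the beta receptor, encoded by Pdgfrb, while PDGF-B can bind the alpha receptor as well. In the developing kidney, Pdgfra and Pdgfrb are known from interstitial stroma and from the precursors of mesangial and smooth muscle cells, and PDGF-B from endothelium is required for the recruitment of mesangial cells into the glomerulus.

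Probes of 1 gene gave either equal or unequal ratios, so the place of each probe is given. Whether the place of a probe has a part in its ratio was not tested. The probes are numbered within each gene from the brightest on. For the genes whose probes are compared most closely, the first 30 of the 60 bases of each probe are shown as the files list them, 5′ to 3′, with every G and C in capitals. Positions are on the mm8 build.
Pdgfa probe 1, chr5:139230717-139230776, minus strand: CCaatGtGCGtGCGGtCtttGttCtCCtCC
Pdgfa probe 2, chr5:139232820-139232879, minus strand: attGaaaGaGGtCCaGGtGaGGttaGaGGa
Pdgfc probe 1, chr3:81299577-81299636, plus strand: aaatatGGaGCCattGCtaaCCtaCCCCtt
Pdgfc probe 2, chr3:81299424-81299483, plus strand: GtatGGtGCtaGaGCttaGCGtCatCtGCa
Pdgfra probe 1, chr5:75479560-75479619, plus strand: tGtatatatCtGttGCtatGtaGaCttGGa
Pdgfra probe 2, chr5:75445285-75445344, plus strand: aatGaGaaGattGtGCaGCtGaattCGtCC
Over the whole 60 bases, G and C made up 53.3% and 51.7% of Pdgfa probes 1 and 2, 41.7% of both Pdgfc probes, 36.7% of Pdgfra probe 1 and 45% of Pdgfra probe 2, against a median of 40% over all probes. The files list 1 and the same RefSeq transcript for both Pdgfra probes, and likewise for both Pdgfa probes. No gene annotation of mm8 was used, so exons and untranslated regions are not assigned to the probes.

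The probe of Fgfrl1 itself, at chr5:108946807-108946866, had log2 ratios of Fgfrl1-/- over wildtype of -1.21, -1.51 and -1.83 on arrays 1, 2 and 3 (mean -1.52 ± 0.31, SD, n = 3; limma, adjusted p = 0.0332). The sources used here do not give its place relative to the disrupted part of the gene. Markers of the labelled tissue were present, in that all 10 cap mesenchyme genes listed, such as Six2 and Wt1, were well above background in both channels on all 3 arrays. Arrays 2 and 3 shared a slide, array 1 came from a different one, and array 1 stood apart. Over all probes the log2 ratios of array 1 correlated with those of arrays 2 and 3 at r = 0.106 and 0.222, against r = 0.713 between arrays 2 and 3. Values without array 1 are therefore given beside the calls of Pdgfa, Pdgfc, Pdgfra and Pdgfrb, the contrast of ligands and receptors and the gene lists. Between 57.1% and 80.2% of probes in the Fgfrl1-/- channel and 60.9% to 65.0% in the wildtype channel were well above background, and no spot was saturated.

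Pdgfa was lower and Pdgfra probe 1 higher in Fgfrl1-/- rudiments. Pdgfra probe 2 (mean log2 ratio 0.17, limma, adjusted p = 0.448) and the probes of Pdgfb, Pdgfc and Pdgfrb did not pass the test. Both Pdgfa probes fell, to a level 1.77-fold and 1.75-fold below wildtype. The brightest Pdgfra probe rose 2.03-fold. Of the 10 probes, 1 was called higher and 2 lower at an adjusted p below 0.05 (limma, Benjamini-Hochberg over all 41174 probes), where 0.687% of all probes were called, 0.289% higher and 0.398% lower. With 1 probe per gene, 2 of the 5 genes were called, against 0.98% of the 27745 gene names. An unadjusted p below 0.05 was found for 4 of the 10 probes, and for 6541 of all 41174 probes (15.9%). Without array 1, 5 of the 10 probes were called, where 18.6% of all probes were, and without array 2 or array 3 limma called 0 of them (3 at an unadjusted p below 0.05 in each case) and 0 of all probes. Over all probes, 119 were called higher and 164 lower, and this split was 2 to 91 when each array was centred on its median in place of loess, 22 to 60 after quantile normalization and 4 to 32 in the authors' log2 table.

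**Figure D1:**
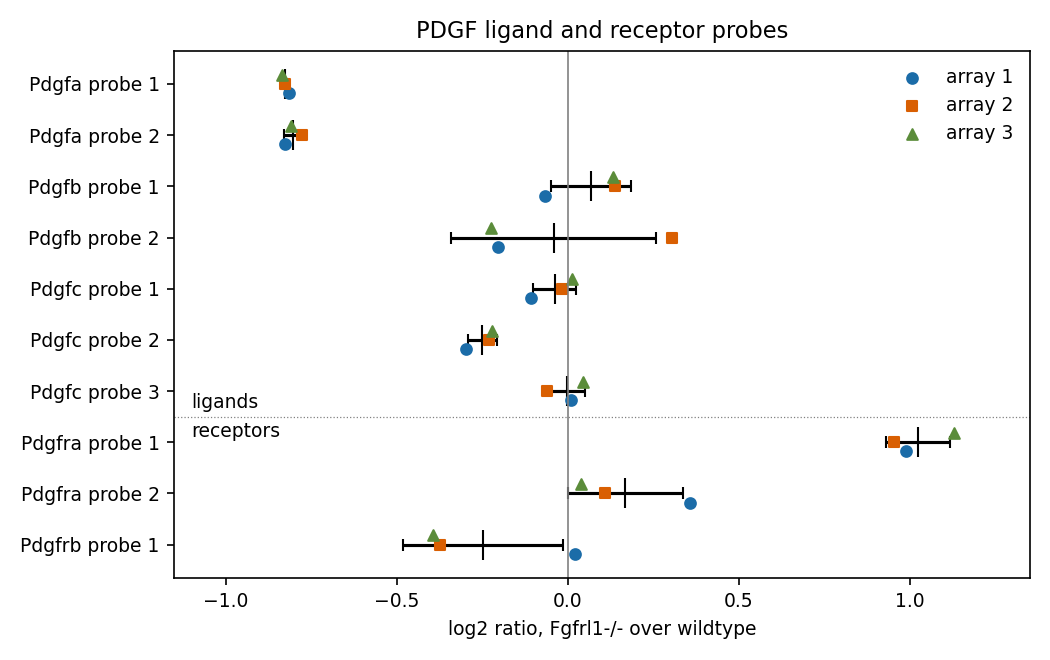
Log2 ratio of Fgfrl1-/- over wildtype (x axis) for each of the 10 probes (y axis), with 1 symbol per array; the vertical tick is the mean and the bar the SD over 3 arrays. Both Pdgfa probes lie close to -0.8 on every array, Pdgfra probe 1 lies near 1 and Pdgfra probe 2 between 0.038 and 0.36.

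Pdgfa, which encodes the A chain, gave the most closely repeated ratios of the members. Probe 1 had log2 ratios of -0.81, -0.83 and -0.84 on arrays 1, 2 and 3. The ratios of all 3 arrays lay within a range that is small beside the difference itself (mean -0.83 ± 0.011, SD, n = 3; 95% confidence interval -0.99 to -0.66; adjusted p = 0.0327). On the log2 scale after loess, the signal of probe 1 was 11.69, 12.27 and 12.28 in the 3 Fgfrl1-/- pools. In the wildtype pools it was 12.502, 13.10 and 13.12. The highest Fgfrl1-/- pool thus lay below the lowest wildtype pool. These levels were not normalized between arrays, and how many of all probes show such a gap was not counted. In the raw scanner values, the median brightness of the Fgfrl1-/- spots was 3354.5, 3095 and 3993.5, and that of the wildtype spots 5632, 13930 and 10946.5. Fgfrl1-/- was dimmer on all 3 arrays before any normalization, but on arrays 2 and 3 the channel was dimmer in general. After background correction and before loess, the median log2 ratio of all probes was 0.082, -0.47 and -0.31 on arrays 1, 2 and 3. Relative to this median, Pdgfa probe 1 was at -0.82, -1.685 and -1.14. The 7445 probes with a mean log2 signal of at least 10 had medians of 0.048, -0.81 and -0.28 on that scale.

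Pdgfa probe 2, which lies 2103 bases from probe 1 on chromosome 5, gave the same picture at a lower brightness. Its log2 ratios were -0.83, -0.78 and -0.81 (mean -0.80 ± 0.025, SD, n = 3; adjusted p = 0.0336). Its signals were 8.65, 9.00 and 9.06 in the Fgfrl1-/- pools and 9.47, 9.78 and 9.87 in the wildtype pools. The ratios of both probes differed by -0.022 ± 0.031 (SD, n = 3), which is within the spread between arrays. Among all 41174 probes, Pdgfa probe 1 ranked 90 and probe 2 ranked 93 from the lowest mean ratio. On the single arrays, probe 1 ranked 168, 137 and 140 from the lowest. Without array 1 the mean ratio was -0.83 for probe 1 (adjusted p = 1.77e-05) and -0.79 for probe 2 (adjusted p = 2.48e-05), where 18.6% of all probes were called. Leaving out array 2 or array 3 left the means of probe 1 at -0.83 and -0.82 with adjusted p-values of 0.295 and 0.471, and those of probe 2 at -0.82 and -0.80 with 0.299 and 0.471.

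Pdgfb encodes the B chain, the ligand of the beta receptor that endothelial cells secrete. Probe 1, at chr15:79823152-79823211, had log2 ratios of -0.068, 0.14 and 0.13 (mean 0.068 ± 0.12, SD, n = 3; adjusted p = 0.761). The signals overlapped, with 6.92 to 7.17 in the Fgfrl1-/- pools and 6.99 to 7.03 in the wildtype pools. The 95% confidence interval of -0.13 to 0.26 reached from a slight fall to a modest rise and did not include the ratio of Pdgfa. Probe 2, at chr15:79823963-79824022 and 811 bases away, had ratios of -0.20, 0.30 and -0.22 (mean -0.041 ± 0.30, SD, n = 3; adjusted p = 0.928). The sign of its mean turned under several alternatives, and the probes of Pdgfb carry no common direction. Both probes were well above background, but dim: the raw values of probe 2 were 88.5, 59 and 55 in the Fgfrl1-/- channel over local backgrounds of 23, 26.5 and 30. They also differ in composition, with 18.3% G and C in probe 1 and 53.3% in probe 2.

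Pdgfc encodes another ligand of the alpha receptor, which is secreted in an inactive form and activated by proteases. Probe 1 had log2 ratios of -0.11, -0.018 and 0.013 (mean -0.038 ± 0.063, SD, n = 3; 95% confidence interval -0.21 to 0.14; adjusted p = 0.866). Probe 2, only 153 bases away, had -0.30, -0.23 and -0.22 (mean -0.25 ± 0.041, SD, n = 3; adjusted p = 0.170). Probe 2 was thus below 0 on every array, and its unadjusted p was 0.0127. The ratio of probe 1 exceeded that of probe 2 by 0.19, 0.21 and 0.23 on the 3 arrays (0.21 ± 0.023, SD, n = 3), more than the spread between arrays. Signals of both probes overlapped between the genotypes, at 10.09 to 11.63 in Fgfrl1-/- and 10.20 to 11.62 in wildtype for probe 1. Without array 1, probe 2 passed the test at a mean of -0.23 (adjusted p = 0.0477), where 18.6% of all probes did. Probe 3, at chr3:81296387-81296446, for which the files list a cDNA clone and not the RefSeq transcript of the other probes, had 0 arrays on which either channel was well above background, so it is given without a fold or a direction and stands in the plot of ratios only so that every probe is accounted for.

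**Figure D2:**
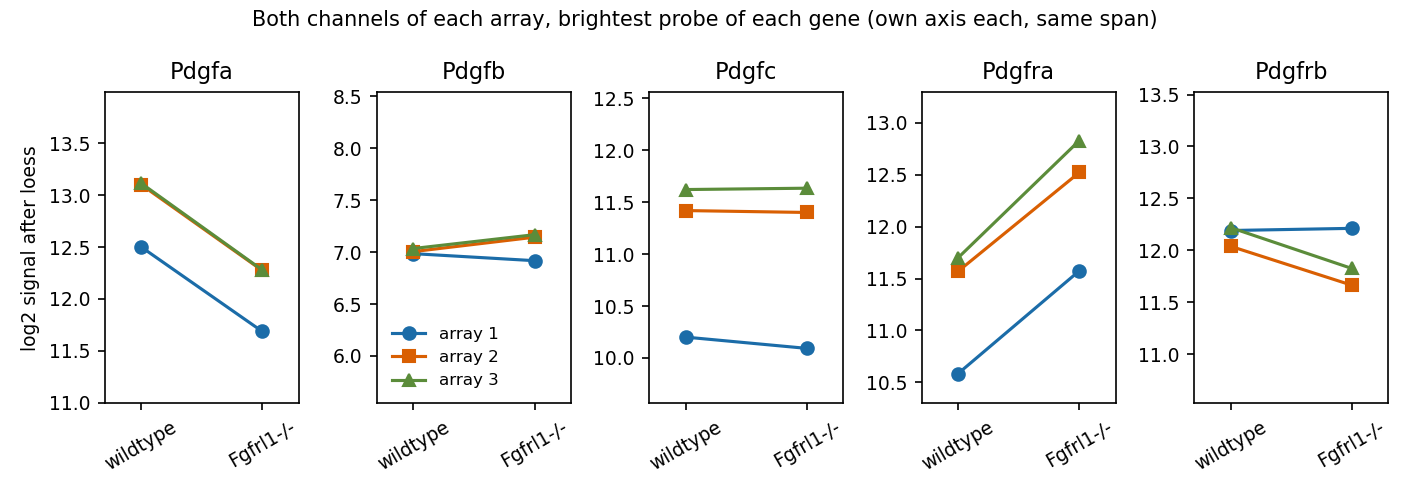
Log2 signal after loess (y axis) of the wildtype and the Fgfrl1-/- channel for the brightest probe of each gene, with 1 line per array; every panel has an axis of its own with the same span of 3 log2 units, so levels are not to be compared between panels. Pdgfa falls and Pdgfra rises on all 3 arrays, and Pdgfrb falls on arrays 2 and 3 but not on array 1.

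Pdgfra encodes the alpha receptor, to which PDGF-A and PDGF-C bind. Its brightest probe, probe 1, is printed on 10 spots, and the ratio of an array is the mean of these spots. The log2 ratios were 0.99, 0.95 and 1.13 on arrays 1, 2 and 3 (mean 1.02 ± 0.093, SD, n = 3; 95% confidence interval 0.84 to 1.21; adjusted p = 0.0274). The signal after loess was 11.57, 12.52 and 12.83 in the Fgfrl1-/- pools. In the wildtype pools it was 10.59, 11.57 and 11.70. Within each array the Fgfrl1-/- pool was brighter, but across arrays the groups touched, since the Fgfrl1-/- pool of array 1 lay at the level of the wildtype pool of array 2 and below that of array 3. In the order of mean ratios, this probe had rank 14 from the highest of 41174. On the single arrays it ranked 532, 57 and 16.

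The 10 spots gave the rise at each position. They ranged from 0.68 to 1.32 on array 1, from 0.92 to 1.02 on array 2 and from 1.04 to 1.19 on array 3. Every spot on every array was above 0, and the spot that comes first in the files was the lowest on every array. Between spots, the SD of arrays 1, 2 and 3 was 0.193, 0.0312 and 0.0447. Among the 245 probes with 10 spots, the median SD was 0.153, 0.0804 and 0.0873, so Pdgfra varied more than usual between spots on array 1 and less on the other two. Of these 245 probes, Pdgfra probe 1 had rank 2 from the highest on each array and rank 1 on the mean.

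The size of the Pdgfra ratio on array 2 depended on loess. The raw brightness of the Fgfrl1-/- channel was 3382.5, 3941.5 and 6183, and that of the wildtype channel 1641, 5118.5 and 4368.75. Fgfrl1-/- was brighter on arrays 1 and 3 and dimmer on array 2. After background correction, and relative to the median of all probes on the array, the log2 ratio before loess was 1.05, 0.13 and 0.85. The 7445 probes with a mean log2 signal of at least 10 had medians of 0.048, -0.81 and -0.28 on the same scale, so the whole bright range of array 2 lay lower in the Fgfrl1-/- channel. Loess brought these medians to 0.0084, -0.00092 and 0.0018. Centred on the array median in place of loess, the mean ratio of Pdgfra probe 1 was 0.68 (adjusted p = 0.213), still above 0. For Pdgfa probe 1 the same change gave -1.21 (adjusted p = 0.0150).

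Pdgfra probe 2 did not show the same rise. It lies 34275 bases from probe 1 on the 5′ side and is printed on 1 spot. Its log2 ratios were 0.36, 0.11 and 0.038 (mean 0.17 ± 0.17, SD, n = 3; 95% confidence interval -0.054 to 0.39; adjusted p = 0.448). The ratio was above 0 on all 3 arrays, but the interval of probe 2 ends below that of probe 1. Probe 1 exceeded probe 2 by 0.63, 0.84 and 1.09 on arrays 1, 2 and 3 (0.86 ± 0.23, SD, n = 3). The probes disagreed on each array, and with 3 arrays an exact two-sided sign-flip test cannot give a p below 0.25, so no p is given. Probe 2 was flagged as well above background in both channels on all 3 arrays, but its raw brightness was only 117, 49 and 53 in the Fgfrl1-/- channel over local backgrounds of 20, 27 and 26. In the wildtype channel it was 99, 89 and 86 over 65.5, 59 and 51.5. With no offset added in the background correction, the ratio of probe 2 was 0.32 and that of probe 1 was 1.03. What part the dimness of probe 2 has in the disagreement was not tested.

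**Figure D3:**
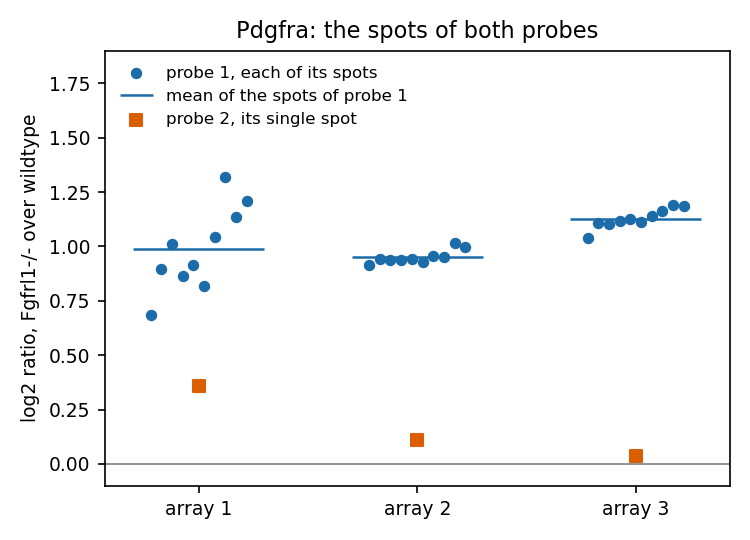
Log2 ratio of Fgfrl1-/- over wildtype (y axis) by array (x axis) for the 10 spots of Pdgfra probe 1 (circles, in the order of the files, with their mean as a line) and the single spot of probe 2 (squares). The lowest spot of probe 1, at 0.68 on array 1, lies above the highest value of probe 2, 0.36 on the same array.

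Without array 1 the mean of Pdgfra probe 1 was 1.04 (adjusted p = 4.63e-06) and that of probe 2 was 0.074 (adjusted p = 0.554). In that fit 18.6% of all probes were called, and its arrays, 2 and 3, share a slide. Probe 1 exceeded probe 2 by 0.97 there. Leaving out array 2 or array 3 kept the mean of probe 1 at 1.06 and 0.97, with adjusted p-values of 0.253 and 0.471. The rise of probe 1 was called in 9 of 16 alternatives and was between 0.68 and 1.06 in all of them.

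Pdgfrb encodes the beta receptor, a marker of pericytes and mesangial cells. It has 1 probe, on chromosome 18, with 38.3% G and C. The log2 ratios were 0.021, -0.37 and -0.39 on arrays 1, 2 and 3 (mean -0.25 ± 0.23, SD, n = 3; 95% confidence interval -0.51 to 0.015; adjusted p = 0.344). The slides differed: arrays 2 and 3 were close to each other, while array 1 was near 0. The signals were 12.21, 11.66 and 11.83 in the Fgfrl1-/- pools and 12.19, 12.04 and 12.22 in the wildtype pools, and the groups overlapped through array 1. Without array 1 the mean was -0.38 and passed the test (adjusted p = 0.0031), among 18.6% of all probes that did. No alternative with all 3 arrays gave an adjusted p below the threshold for Pdgfrb, and its mean was below 0 in all 16 alternatives, from -0.61 to -0.18.

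Taking the brightest probe of each gene, the mean log2 ratio of the 3 ligands was -0.33, -0.24 and -0.23 on arrays 1, 2 and 3 (-0.27 ± 0.056, SD, n = 3). That of both receptors was 0.51, 0.29 and 0.37 (0.39 ± 0.11, SD, n = 3). The receptors were above the ligands by 0.84, 0.52 and 0.60 (0.65 ± 0.16, SD, n = 3), in the same direction on all 3 arrays and by 0.56 ± 0.052 (SD, n = 2) without array 1, and for 3 arrays the smallest p of an exact two-sided sign-flip test is again 0.25. Each class held 1 gene that moved and others that did not pass the test. Pdgfra exceeded Pdgfa by 1.80, 1.78 and 1.96 (1.85 ± 0.10, SD, n = 3). Pdgfrb exceeded Pdgfb by 0.089, -0.51 and -0.53 (-0.32 ± 0.35, SD, n = 3), in the opposite direction on 2 of 3 arrays.

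The receptors also differed from each other, and so did the ligands. Pdgfra exceeded Pdgfrb by 0.97, 1.33 and 1.52 (1.27 ± 0.28, SD, n = 3). Pdgfa lay below Pdgfb by 0.75, 0.97 and 0.97 in log2 ratio, and below Pdgfc by 0.71, 0.81 and 0.85. When all probes of a gene were averaged, the difference between receptors and ligands was 0.47 ± 0.21 (SD, n = 3), as Pdgfra probe 2 then counts as much as probe 1, and with only the probes well above background it was 0.49 ± 0.22.

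**Figure D4:**
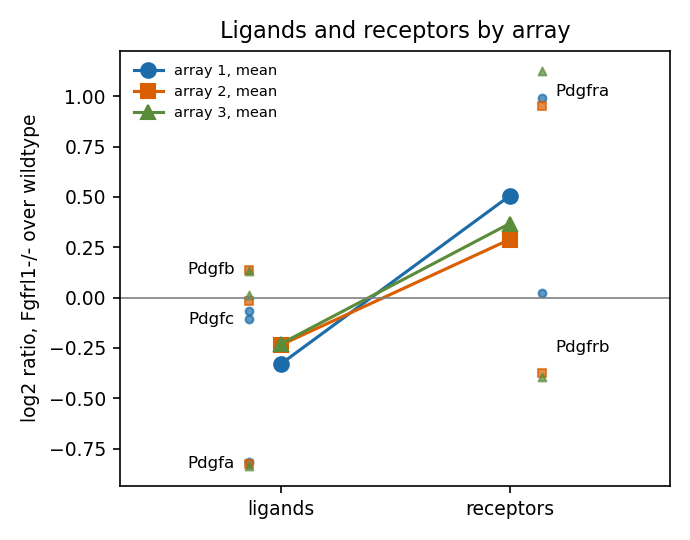
Log2 ratio of Fgfrl1-/- over wildtype (y axis) for the ligands and the receptors (x axis); small symbols are the brightest probe of each gene and large symbols joined by a line the class mean, for each array. The receptor mean lies above the ligand mean on all 3 arrays, while the single genes of each class are spread from -0.84 to 0.14 and from -0.39 to 1.13.

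The list of the other genes of the PDGF pathway was set with earlier results of these same arrays known. It held 74 genes, all of them on the array, with 157 probes. Of these probes, 0 were called higher and 1 lower by limma (37 had an unadjusted p below 0.05), which is 0.637% called and 23.6% at an unadjusted p below 0.05, beside 0.687% and 15.9% of all probes. The median log2 ratio of the brightest probes was -0.0092, against 0.0071 over all genes. The called probe was that of Egr1, an immediate early transcription factor induced by growth factors, with log2 ratios of -1.45, -2.34 and -2.59 (mean -2.13 ± 0.60, SD, n = 3; adjusted p = 0.0399). Without array 2 or array 3, 0 of the 157 probes were called (19 and 18 at an unadjusted p below 0.05), that of Egr1 among those lost. Among 12 early response genes, 9 had a mean below 0 (median -0.14), where 52.3% of all gene names lay above 0. Without array 1, 46 of the 157 probes were called, 20 higher and 26 lower, beside 18.6% of all probes.

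Of the remaining PDGF family members, Pdgfd, a ligand of the beta receptor, had a mean log2 ratio of 0.19 (adjusted p = 0.309) and Pdgfrl, a receptor-like protein, of -0.16 (adjusted p = 0.507). Among 9 genes for processing and binding, the largest difference was that of Furin, a protease that cleaves PDGF precursors, at 0.49 (adjusted p = 0.0706). Among 33 adaptors and enzymes downstream of the receptors it was that of Gab1, a docking protein, at 0.53 (adjusted p = 0.0902). Of 75 probes of adaptors and enzymes and 25 of processing and binding genes, limma called 0, close to the 0.687% of all probes. At an unadjusted p below 0.05 were 13.3% and 24% of them, beside 15.9% of all probes. Of 12 genes listed here as negative regulators, 10 had a mean below 0 (median -0.12), where 52.3% of all gene names lay above 0. The largest difference was -0.40 for 1 of 3 probes of Ptpn11 (adjusted p = 0.0867), whose brightest probe was at 0.13. Ptpn11 was listed as a tyrosine phosphatase, and whether it acts as a negative regulator here was not tested. Among 6 genes of related receptors and their ligands it was 0.53 for Csf1r, the receptor of macrophage growth factor (adjusted p = 0.0846). The share of probes at an unadjusted p below 0.05 was higher in the other sublists. It was 25% for Pdgfd and Pdgfrl and 33.3% for the genes listed as negative regulators. For early response genes it was 41.2%, and for related receptors and their ligands 44.4%.

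Markers of the cell types known to express these receptors and ligands are given beside them. For 15 stroma genes the median log2 ratio was 0.45, with medians of 0.57, 0.46 and 0.36 on arrays 1, 2 and 3. Of the 15, 13 had a mean above 0, beside 52.3% of all gene names. Col1a1, a collagen chain, rose at 0.84 (adjusted p = 0.0416) and Smoc2, a matrix protein, at 0.95 (adjusted p = 0.0385). Foxd1, the transcription factor of cortical stroma, was at 0.90 with its brightest probe (adjusted p = 0.0570) and passed the test with its other probe at 0.78 (adjusted p = 0.0419). In total 3 of 32 stroma probes (9.38%) were called higher and 0 lower, beside 0.289% and 0.398% of all probes. Without array 2 or array 3, limma called 0 of all probes, these 3 among those lost. The stroma genes were chosen with earlier results of these same arrays known, so their share of calls is no separate result. Tbx18, a factor of stroma around the ureter, had 0.21, -0.28 and -0.38. The stroma median thus lay on the same side of 0 as Pdgfra, below the 1.02 of Pdgfra probe 1. With arrays centred on the median it was 0.077, and without array 1 it was 0.39. The part of stroma in the rise of Pdgfra probe 1 was not tested.

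For 14 mural and mesangial genes the median log2 ratio was -0.11, with medians of 0.15, -0.18 and -0.19 on arrays 1, 2 and 3. Limma called 0 of their 28 probes, beside 0.687% of all probes. An unadjusted p below 0.05 was found for 10 of the 28 (35.7%), beside 15.9% of all probes. The median was -0.17 without array 1, -0.045 without array 2 and -0.033 without array 3. Pdgfrb, too, was above 0 on array 1 and below 0 on arrays 2 and 3, but so were the medians of endothelium (0.17, -0.045 and -0.044), of neural genes (0.040, -0.056 and -0.13) and of the whole pathway list (0.047, -0.0099 and -0.031). Rgs5, a pericyte marker, had 0.29, -0.72 and -0.50 (adjusted p = 0.531) with its brightest probe and -0.38, -0.34 and -0.22 with the other, and Acta2, smooth muscle actin, had a mean of -0.16 (adjusted p = 0.461). The median of 16 endothelium genes, the cells that secrete PDGF-B, was 0.036. Of their 27 probes limma called 0, and 2 (7.41%) had an unadjusted p below 0.05. The sign of this median was not stable, at -0.064 without array 1, -0.17 with arrays centred on the median and -0.010 in the authors' log2 table. Pecam1, an adhesion molecule of endothelium, was at 0.17 (adjusted p = 0.398) and Cdh5, its cadherin, at -0.053 (adjusted p = 0.831). Among other cell types, the median was -1.33 for 8 renal vesicle genes, of which 6 were called lower, where 134 of all 27745 gene names were. Like the other lists, the renal vesicle genes were chosen with earlier results of these same arrays known, so their fall is no separate result. For 10 macrophage genes, all above 0 beside 52.3% of all gene names, the median was 0.45. Limma called 1 of their 17 probes (5.88%) higher, beside 0.289% of all probes, and 0 of all probes without array 2 or array 3. An unadjusted p below 0.05 was found for 52.9% of the 17, beside 15.9% of all probes. The part of these cell types in the ratios of Pdgfa and Pdgfra was not tested.

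**Figure D5:**
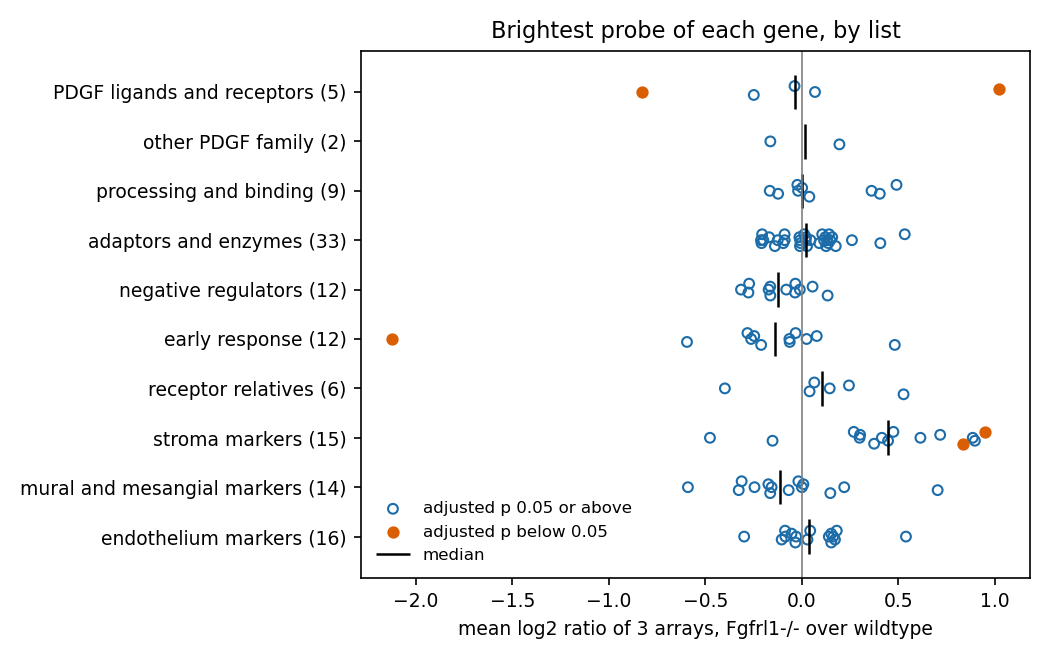
Mean log2 ratio of Fgfrl1-/- over wildtype over 3 arrays (x axis) for the brightest probe of each gene, by list (y axis, number of genes in brackets); filled circles have an adjusted p below 0.05 and the vertical line is the list's median. Pdgfa and Pdgfra are filled at opposite ends of their row, Egr1 is the only filled gene of the pathway rows, and 2 stroma genes are filled.

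The probes most like each member were sought among the 21089 named probes well above background in both channels on all arrays, by the Euclidean distance between their log2 ratios over the 3 arrays. The probe nearest to Pdgfra probe 1 was that of Phyhd1 at a distance of 0.161, with ratios of 1.06, 1.03 and 1.01, followed by Pcdh21 at 0.212 and Sfmbt2 at 0.237. Only 1 probe lay within 0.2 of Pdgfra. Nearest to Pdgfa were Unc93a at 0.0574, D330050I23Rik at 0.0693 and 4930523C07Rik at 0.0947, and 22 probes lay within 0.2. Pdgfb, Pdgfc and Pdgfrb had 2652, 3209 and 460 probes within 0.2. The nearest to Pdgfc were Pcsk7, Fuca1 and Nsun6, and those to Pdgfrb were Rcbtb1, Mrps6 and Wdr67. Pdgfra and Pdgfa, far from 0, thus had few near neighbours, and the members near 0 had many.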

How the data were processed

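Kidney rudiments of E12.5 Fgfrl1-/- and wildtype mouse embryos were profiled on 3 Agilent two-colour arrays. Per the file headers, the authors read array 1 with Agilent Feature Extraction 9.5.3.1 and the other arrays with 10.5.1.1, while the submitters' processing notes name version 10. The deposited files hold raw median intensities per spot and per local background in both channels, the log10 ratio of the processed signals (wildtype over Fgfrl1-/-) and flags. A deposited series table holds the authors' log2 values per probe, made with R and Bioconductor by steps not given in the sources used here. Set against the scanner ratios, turned to Fgfrl1-/- over wildtype, these values correlated at r = 0.705, 0.718 and 0.706, which settles their direction, and their medians were -0.018, 0 and 0.003.

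Here, median intensities were corrected with the normexp model (offset 50) and normalized by loess with control spots at weight 0 in limma 3.58.1 under R 4.3.3. Spots with an outlier flag were dropped, spots of a probe averaged, and the log2 ratio was tested against 0 over all 41174 probes with a moderated two-sided test (lmFit, eBayes) and Benjamini-Hochberg adjustment, with calls below 0.05. The array pairs the pools. Probes, not genes, were tested. Gene names, listed for array 1, were carried to the other arrays by identical spot and probe numbers, and older symbols of list genes were found through RefSeq synonyms. Figures were drawn with matplotlib 3.10.9. The scripts were tested on simulated data.

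The members and the lists (pathway genes and markers of stroma, mural and mesangial cells, endothelium, cap mesenchyme, renal vesicle, ureteric epithelium, macrophages, erythroid cells, skeletal muscle, neural and steroidogenic cells) were chosen with earlier results of these data known. Named genes were every member probe, every called pathway probe and the largest difference of each pathway sublist, called probes and 6 fixed markers of stroma, mural cells and endothelium, and the 3 nearest probes of each member (those of Pdgfb are not reported here). Of 18 alternatives, 17 were planned and 1, quantile normalization between arrays, was chosen after seeing the data. Mean signals in place of medians were not run, since only the file of array 1 was found to hold them. Precision is limited by there being only 3 arrays.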

Additional observations from a re-analysis of the deposited data

How the results depend on the processing

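The directions of both Pdgfa probes and of Pdgfra probe 1 were the same under every alternative run, but their calls were not. In place of 3 member probes, 0 were called with a normexp offset of 0, with the scanner software's log ratio and with 1 value per slide (3, 4 and 3 at an unadjusted p below 0.05), and 1 (Pdgfra probe 1) without dim probes or in the authors' log2 table. Over all probes, the count went from 283 to 0, 0 and 0 in the first 3 of these (4852, 6118 and 3450 at an unadjusted p below 0.05), to 41 without dim probes, 36 in the authors' table, 93 with median centring and 82 with quantile normalization. The pathway count went from 1 to 0 with an offset of 0, the scanner ratio, 1 value per slide or dim probes left out. It went to 2 in the separate-channel fit, which has no replicate block. There, 1 correlation common to all probes (0.604) links both channels of a spot, whereas the main test takes their log2 ratio. In the separate-channel fit, too, Pdgfra probe 1 lost its call (adjusted p = 0.111). Leaving out 1 array gave 0 to 5 member probes, 0 to 7666 probes and 0 to 46 pathway probes, the upper values all without array 1. The receptors exceeded the ligands by 0.56 to 0.72 without 1 array, and by 0.47 with all probes and 0.49 with the probes well above background averaged. With median centring the Pdgfra probes lay 0.46 apart on average without regard to sign, and their means were 0.68 (probe 1) and 0.29 (probe 2). These means differ by less than that distance, so probe 2 lay above probe 1 on at least 1 array. The mean of Pdgfb probe 2 turned to 0.052 without background subtraction, 0.11 in the scanner ratio, 0.054 with median centring, 0.046 in the authors' table, 0.040 without array 1 and 0.051 without array 3, against -0.21 without array 2. Pdgfc probe 3 was at background and its values, which carry no direction, were 0.10, 0.018, 0.093 and 0.12 under the first 4 of these, 0.014 with an offset of 0, 0.0039 with quantile normalization and 0.026 without array 2, and -0.026 without array 3. The cause of these changes was not tested. Aquantile normalization leaves ratios as they are by construction, and slide as a random block could not be fitted. Pdgfb and Pdgfra probe 2 were dim, though well above background on all 3 arrays.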

Other observations

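The remaining cell types that a kidney rudiment or its surroundings could hold gave the following values, each as the median log2 ratio of Fgfrl1-/- over wildtype over the brightest probe of each gene. It was -0.11 for 10 cap mesenchyme genes, of which Cited1, a regulator of nephron progenitors, was called lower at -0.78 (limma, adjusted p = 0.0442). It was 0.29 for 12 ureteric epithelium genes, of which Wnt11, a signal of the ureteric tip, was called lower at -0.76 (adjusted p = 0.0408) and 1 probe of Krt8, an epithelial keratin, higher at 0.83 (adjusted p = 0.0416). It was -0.097 for 8 erythroid, 0.019 for 8 skeletal muscle, -0.083 for 8 neural and -0.13 for 5 steroidogenic genes, with 0 probes called by limma in these 4 lists and 4, 1, 2 and 0 probes at an unadjusted p below 0.05. Of 13 cap mesenchyme probes 1 was called lower, and of 16 ureteric epithelium probes 1 higher and 1 lower. Over all probes, 0.289% were called higher and 0.398% lower. Without array 2 or array 3, limma called 0 of all probes, those of Cited1, Wnt11 and Krt8 among those lost. An unadjusted p below 0.05 was found for 30.8% of erythroid, 10% of skeletal muscle, 16.7% of neural and 0% of steroidogenic probes. Over all probes it was 15.9%. The genes named here were chosen after their values were seen.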
